A study of Mus musculus with 8 samples.

Results

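The p53 target genes examined here are 32 mouse gene symbols: p53 itself (Trp53), its feedback regulators, and genes that p53 switches on for cell cycle arrest, apoptosis, DNA repair and stress control. All 32 symbols were found among the 24013 symbols of the expression table, and 31 reached at least 1 FPKM in at least 2 of the 8 libraries, the filter for testing, which left 11190 genes in all. FPKM counts sequenced fragments relative to transcript length and library size. The member below the filter was Bbc3.

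RNA was sequenced from sorted intestinal epithelial cells of Lyz1CreER; R26R-tdT mice, aged 8 to 14 weeks, on a mixed C57/BL6 and 129 background. All mice, the non-irradiated ones included, carried both alleles and received 1 dose of 10 mg tamoxifen. The Cre is driven from Lyz1, the lysozyme gene of Paneth cells, so tdTomato marks cells that expressed Lyz1 when tamoxifen was given, together with their later progeny. Cells were viable, CD45 negative and EpCAM positive before the split by CD24, a surface protein of Paneth cells. Of the 3 groups, irradiated CD24- (tdT+CD24-, the derivative cells, 3 libraries) and irradiated CD24+ (tdT+CD24+, the Paneth gate, 3 libraries) came from mice 5 days after radiation. Non-irradiated CD24+ (the same Paneth gate, 2 libraries) came from mice without radiation. No CD24- group without radiation was analysed here. Radiation dose, number of mice and pooling: none of these is given in the sources used here. P-values therefore measure the spread between these libraries, which may be technical.

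p53 is a transcription factor held at a low level by Mdm2, a ubiquitin ligase, and Mdm4, its partner. After DNA breaks the kinases Atm and Chek2 stabilise p53, which then raises arrest genes such as Cdkn1a (p21), death genes such as Bax, Bbc3 (Puma) and Pmaip1 (Noxa), and Mdm2, which closes the loop. In intestinal crypts p53 is known for the wave of Puma-dependent apoptosis and p21-dependent arrest that follows radiation within hours.

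The deposited FPKM had no common sum across libraries, and this bears on every comparison. The FPKM sums were 540467 to 582799 in irradiated CD24- libraries, 1329220 to 1429910 in irradiated CD24+ libraries and 1435060 and 1638350 in non-irradiated CD24+ libraries. A list of 37 products of Paneth cells took 8.36% to 16.3% of the sum in irradiated CD24- libraries, 72.4% to 75.6% in irradiated CD24+ libraries and 76.9% and 82.1% in non-irradiated CD24+ libraries. This list includes Reg3g, which went against the gate, as given below. The median gene lay 0.51 above 0 on the log2 scale between irradiated CD24- and irradiated CD24+, and 0.32 above 0 between irradiated and non-irradiated CD24+. After median-of-ratios scaling, which centres the libraries on the typical gene, these medians were 0.03 and -0.04. One library stood apart: replicate 1 of non-irradiated CD24+ had a scaling factor of 0.528, against 0.867 for replicate 2, and replicate 2 held the higher value for 94.95% of all genes tested and for 29 of the 31 members. Cd24a and the sums of Paneth and enterocyte markers followed the gates. Cd24a was at 37.4 to 117 FPKM in irradiated CD24-, 670 to 750 in irradiated CD24+ and 621 and 663 in non-irradiated CD24+ libraries. The 10 Paneth markers summed to 14898 to 32327 FPKM in irradiated CD24-, 302052 to 330167 in irradiated CD24+ and 358670 and 441311 in non-irradiated CD24+ libraries. Among them Reg3g went against the gate. It had 8230, 13010 and 11279 FPKM in irradiated CD24- libraries, against 2420, 3566 and 6078 in irradiated CD24+ and 411 and 2235 in non-irradiated CD24+ ones. The 10 enterocyte markers summed to 15848 to 35342 FPKM in irradiated CD24-, 734 to 1244 in irradiated CD24+ and 463 and 2242 in non-irradiated CD24+ libraries. The 8 immune markers summed to 4.01 to 5.98 FPKM in irradiated CD24-, 0.943 to 1.33 in irradiated CD24+ and 1.02 and 1.78 in non-irradiated CD24+ libraries. Among them the myeloid integrin gene Itgam had 2.91, 2.70 and 2.39 FPKM in irradiated CD24- libraries, against 0.574, 0.869 and 0.300 in irradiated CD24+ ones, and the complement gene C1qa had 0.0884, 1.09 and 3.05 FPKM in irradiated CD24- libraries, against 0.118, 0.370 and 0.616 in irradiated CD24+ ones, whereas Ptprc and Cd3e stayed under 1 FPKM in every library. The 7 stromal markers summed to 0.160 to 1.25 FPKM in irradiated CD24-, 0.0671 to 0.451 in irradiated CD24+ and 0.0264 and 0.333 in non-irradiated CD24+ libraries, with the endothelial gene Pecam1 reaching 1.11 FPKM in replicate 3 of irradiated CD24- and Acta2 at 0 throughout. In bulk libraries of sorted cells, fewer cells of a type and less RNA per cell cannot be told apart.

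By level, Rps27l, a ribosomal-protein-like p53 target, was highest of the members in each group, with a mean of 289 ± 33.0 FPKM in irradiated CD24-, 211 ± 34.1 in irradiated CD24+ and 150 ± 36.9 in non-irradiated CD24+ cells (SD, n = 3, 3 and 2). Rps27l is a near-identical copy of Rps27, so its level is uncertain where reads match both. Perp, Cdkn1a, Ei24, Ccng1 and Bax followed in irradiated CD24- cells, with means of 109, 92.4, 56.5, 45.6 and 43.8 FPKM. At the other end, Eda2r, Gdf15 and Bbc3 averaged 0.688, 0.758 and 0.796 FPKM in irradiated CD24- cells and 0.278, 0.230 and 0.314 FPKM in non-irradiated CD24+ cells.

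**Figure D1:**
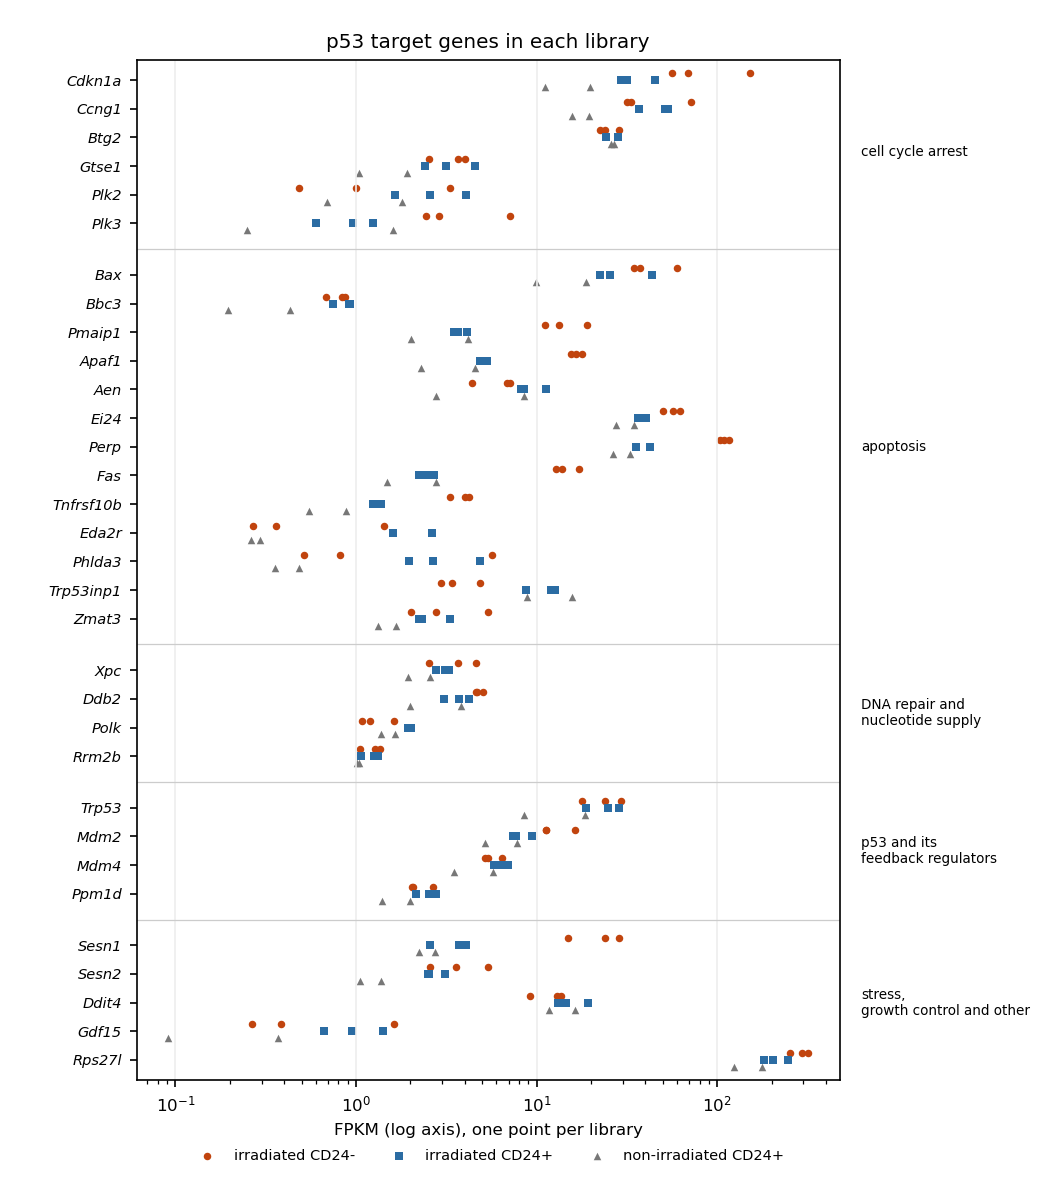
FPKM of each of the 32 p53 target genes on a log axis, 1 point per library, grouped by role, for irradiated CD24- (3 libraries), irradiated CD24+ (3) and non-irradiated CD24+ cells (2). Fas, Apaf1, Perp and Sesn1 of irradiated CD24- cells lie clear of both CD24+ groups, whereas Eda2r, Phlda3 and Ccng1 of irradiated CD24+ cells lie clear of the non-irradiated ones.

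The promoters of 5 members are shown as examples: arrest (Cdkn1a, Ccng1), apoptosis (Bax), feedback (Mdm2) and the member with the largest difference between the gates (Sesn1). No repair gene is shown. All 5 hold a match of the kind described below, while members without one, such as Fas, Apaf1 and Btg2, are not shown. Each line gives the 250 bases before an annotated transcription start, on the coding strand, from RefSeq (GRCm38.p6). This build differs from the mm9 build listed for the expression values, so the coordinates describe the sequence only. Capitals mark a match, with no mismatch, to the p53 consensus decamer, which is its own reverse complement, so both strands are searched at once. The regions are chr17:29090729-29090978 (plus strand) for Cdkn1a, chr11:40755287-40755536 (minus) for Ccng1, chr7:45466899-45467148 (minus) for Bax, chr10:117710759-117711008 (minus) for Mdm2 and chr10:41887189-41887438 (plus) for Sesn1.
Cdkn1a: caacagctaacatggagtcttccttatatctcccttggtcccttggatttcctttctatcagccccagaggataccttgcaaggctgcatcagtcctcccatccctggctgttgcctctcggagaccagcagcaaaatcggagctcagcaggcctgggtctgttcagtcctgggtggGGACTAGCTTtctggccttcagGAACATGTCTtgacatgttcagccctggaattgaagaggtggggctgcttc
Ccng1: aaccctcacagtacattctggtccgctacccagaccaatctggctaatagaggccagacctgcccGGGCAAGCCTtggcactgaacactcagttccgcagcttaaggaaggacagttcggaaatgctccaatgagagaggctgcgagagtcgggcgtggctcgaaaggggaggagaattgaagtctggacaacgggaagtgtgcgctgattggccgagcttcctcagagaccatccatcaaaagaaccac
Bax: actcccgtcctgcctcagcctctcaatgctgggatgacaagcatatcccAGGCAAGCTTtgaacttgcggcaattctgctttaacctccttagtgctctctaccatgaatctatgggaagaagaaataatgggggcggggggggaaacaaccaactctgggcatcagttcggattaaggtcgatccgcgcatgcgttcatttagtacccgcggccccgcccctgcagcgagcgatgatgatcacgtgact
Mdm2: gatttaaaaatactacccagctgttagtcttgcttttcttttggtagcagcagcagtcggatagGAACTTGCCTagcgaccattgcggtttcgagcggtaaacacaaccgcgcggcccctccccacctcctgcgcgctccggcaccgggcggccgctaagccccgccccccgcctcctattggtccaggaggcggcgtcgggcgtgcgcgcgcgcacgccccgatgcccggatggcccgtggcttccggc
Sesn1: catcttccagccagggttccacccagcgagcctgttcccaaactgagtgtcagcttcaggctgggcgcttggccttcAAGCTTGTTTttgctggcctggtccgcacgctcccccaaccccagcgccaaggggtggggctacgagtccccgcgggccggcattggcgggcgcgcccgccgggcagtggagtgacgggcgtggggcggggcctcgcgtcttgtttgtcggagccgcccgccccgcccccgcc
The decamer occurred in the windows of 250 bases before to 50 after the start of 12 of the 24 members with an entry, against 9.55% of the 27025 genes in the whole table. Counted by window, 13 of the members' 34 windows held it, since some genes have several annotated starts. Cdkn1a and Rps27l have 2 windows each, of which 1 held 2 matches and the other 0, and 0.359% of all 32851 windows held 2 or more. Sesn1 also has a second window with 0 matches, so the windows printed for Cdkn1a and Sesn1 are those that hold a match. A match is a string of letters in a short window and says nothing of binding.

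The comparison of irradiated with non-irradiated CD24+ cells asks what differed inside the Paneth gate 5 days after radiation. The arrest genes Cdkn1a and Ccng1, the death gene Bax and the receptor and signalling genes Eda2r and Phlda3 had the largest log2 fold changes, from 1.04 to 1.496, and the libraries of the 2 groups did not overlap for any of these 5. None of the 31 members passed the test across all genes, and 0% of all genes tested passed. At an unadjusted p under 0.05 there were 11 members and 1424 genes in all, and the smallest adjusted p of any gene was 0.103. Of the 31 members, 29 had a positive log2 fold change and 20 lay above the median gene, with a member median of 0.43 against 0.32 for all genes tested.

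Of the arrest genes, Cdkn1a, the inhibitor of cyclin-dependent kinases known as p21, had 31.6, 29.5 and 45.3 FPKM in irradiated CD24+ libraries, against 11.1 and 19.8 FPKM in non-irradiated ones. Its log2 fold change was 1.17 ± 0.41 (SE; limma adjusted p = 0.348), or 2.29-fold by mean FPKM. Every irradiated library was above both non-irradiated ones. Ccng1, cyclin G1, a phosphatase adaptor that feeds back on Mdm2, had 53.5, 37.0 and 51.2 FPKM in irradiated CD24+ libraries, against 15.6 and 19.4 FPKM in non-irradiated ones. Its difference was 1.37 ± 0.34 on the log2 scale (adjusted p = 0.348), again with no overlap. Gtse1, which holds p53 down in the G2 phase, had 2.40, 3.15 and 4.53 FPKM in irradiated CD24+ libraries, against 1.04 and 1.91 FPKM in non-irradiated ones (0.81 ± 0.26, adjusted p = 0.348). The antiproliferative gene Btg2 stood at -0.05 ± 0.21, and the polo-like kinases Plk2 and Plk3 overlapped between the groups.

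Among the apoptosis genes, Eda2r, a receptor of the tumour necrosis factor family, had 2.64, 1.59 and 2.64 FPKM in irradiated CD24+ libraries, against 0.262 and 0.293 FPKM in non-irradiated ones. This was an 8.26-fold ratio of means and the smallest p of all members (log2 fold change 1.35 ± 0.27, adjusted p = 0.283). Phlda3, an inhibitor of the kinase Akt, had 2.66, 1.98 and 4.89 FPKM in irradiated CD24+ libraries, against 0.355 and 0.486 FPKM in non-irradiated ones, a 7.55-fold ratio (1.496 ± 0.52, adjusted p = 0.348). Both genes lay clear of the non-irradiated libraries in every irradiated one. Both had under 1 FPKM in each non-irradiated library and so entered the test only through irradiated libraries, which ties their direction to the filter, as it does for Gdf15. Tnfrsf10b was also under 1 FPKM in each non-irradiated library, but its irradiated CD24- libraries alone carried it past the filter. With that limit, Eda2r and Phlda3 passed the threshold in a fit of only the 5 libraries compared (adjusted p = 0.0265 for Eda2r and 0.0305 for Phlda3, with 0.151% of all genes called higher) and when replicate 3 of irradiated CD24- was left out (0.0222 and 0.0398, with 0.117% of all genes). That CD24- library enters this comparison only through the shared estimate of spread. In the fit of 5 libraries they reached 1 FPKM only in irradiated CD24+ ones, so these calls are not support for the direction. Bax, which permeabilises mitochondria, had 22.5, 25.4 and 43.8 FPKM in irradiated CD24+ libraries, against 9.88 and 18.9 FPKM in non-irradiated ones (1.04 ± 0.36, adjusted p = 0.348). Bbc3, below the filter and so untested, was listed at 0.923, 0.911 and 0.744 FPKM in irradiated CD24+ libraries, against 0.195 and 0.433 FPKM in non-irradiated ones, again without overlap. By contrast, the death receptor Fas, the Noxa gene Pmaip1 and Trp53inp1, a stress-induced p53 cofactor, overlapped between the groups, at 0.18 ± 0.23, 0.27 ± 0.27 and -0.09 ± 0.28. Of the remaining apoptosis genes, Aen stood at 0.77 ± 0.35, Zmat3 at 0.53 ± 0.29, Apaf1 at 0.50 ± 0.23, Tnfrsf10b at 0.43 ± 0.18, Perp at 0.34 ± 0.23 and Ei24 at 0.31 ± 0.23.

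The 4 repair genes lay near the median gene: Xpc and Ddb2, which recognise lesions for nucleotide excision repair, at 0.32 ± 0.22 and 0.29 ± 0.23, the translesion polymerase Polk at 0.25 ± 0.17 and the ribonucleotide reductase subunit Rrm2b at 0.13 ± 0.16. Only Xpc of these 4 lay above the median gene. Trp53 itself had 18.9, 24.8 and 28.6 FPKM in irradiated CD24+ libraries, against 8.51 and 18.6 FPKM in non-irradiated ones (0.86 ± 0.33, adjusted p = 0.348), so its lowest irradiated library barely exceeded the higher non-irradiated one. Mdm2 overlapped, with 7.71, 7.45 and 9.40 FPKM in irradiated CD24+ libraries, against 5.16 and 7.83 FPKM in non-irradiated ones (0.31 ± 0.24, adjusted p = 0.401). Mdm4 and the p53 phosphatase Ppm1d stood at 0.43 ± 0.22 and 0.38 ± 0.19. Sesn2, which restrains mTORC1 signalling, had 2.51, 2.52 and 3.13 FPKM in irradiated CD24+ libraries, against 1.06 and 1.38 FPKM in non-irradiated ones (0.75 ± 0.24, adjusted p = 0.348). The secreted stress factor Gdf15 had 0.665, 0.953 and 1.41 FPKM in irradiated CD24+ libraries, against 0.0916 and 0.369 FPKM in non-irradiated ones, also without overlap (0.70 ± 0.29, adjusted p = 0.348). Rps27l, Sesn1 and Ddit4 stood at 0.50 ± 0.30, 0.34 ± 0.27 and 0.14 ± 0.25.

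The libraries of the 2 CD24+ groups did not overlap for 20 of the 31 members, all higher after irradiation, and lower for none, against 34.2% and 1.13% of all genes tested. After median-of-ratios scaling 10 members did not overlap in this direction (11.3% of all genes) and 1 in the other (16.8%), and the member median was 0.04 against -0.04 for all genes. Ccng1, Eda2r, Phlda3 and Cdkn1a stood at 0.92, 1.27, 1.38 and 0.73 on that scale, so their differences stayed positive, while 0 members passed the test in either direction (0.00897% of all genes higher and 0.0359% lower). The 2 non-irradiated libraries carry much of the weight. Without replicate 2 of that group 12 members passed as higher, with 46.4% of all genes, and without replicate 1 none did, with 0.0179%. Cell type markers differed too: the 6 stem cell markers summed to 968 to 1190 FPKM in irradiated CD24+, against 523 and 800 FPKM in non-irradiated ones, and the 8 enteroendocrine markers to 360 to 1379 FPKM in irradiated CD24+, against 214 and 257 FPKM in non-irradiated ones. The 8 tuft cell markers went the other way, with sums of 9.52 to 23.0 FPKM in irradiated CD24+, against 31.2 and 42.6 FPKM in non-irradiated ones. So did the Paneth sum given above, although its markers did not all do so. Lyz1 and Mmp7 overlapped between the groups, and Reg3g was higher in every irradiated CD24+ library than in either non-irradiated one. Lgr5 of the stem cell markers and Chga and Gip of the enteroendocrine ones overlapped too. Olfm4 gave most of the stem cell sum, with 1059, 959 and 845 FPKM in irradiated CD24+ libraries, against 461 and 703 in non-irradiated ones. The part of these markers in the members' values was not tested.

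**Figure D2:**
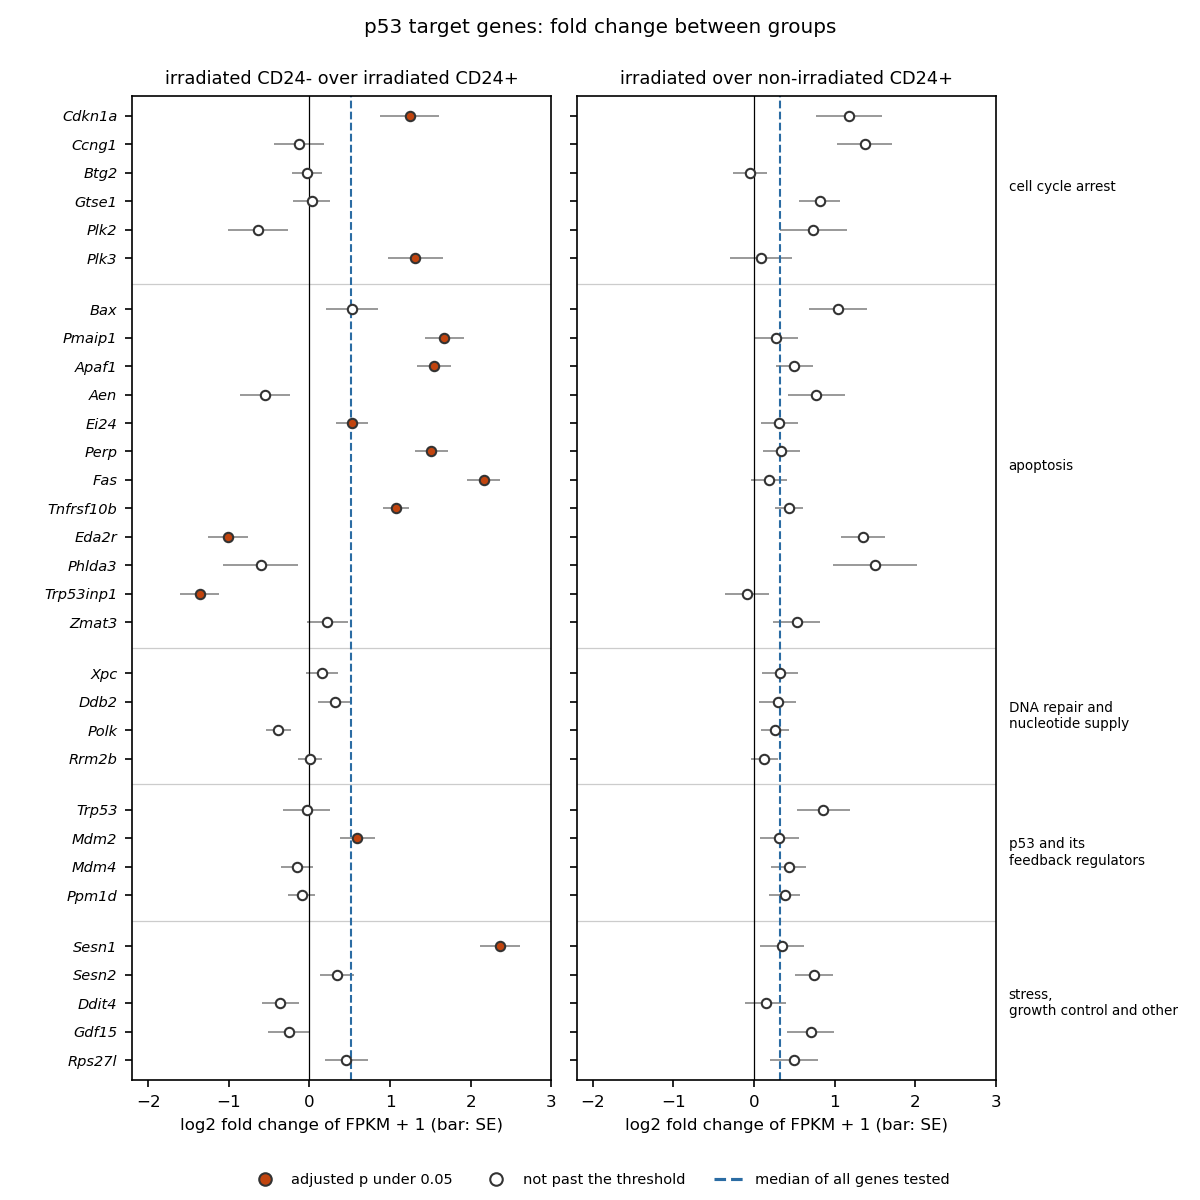
Log2 fold change of FPKM + 1 for the 31 members tested, with SE from limma, for irradiated CD24- over irradiated CD24+ (left) and irradiated over non-irradiated CD24+ (right). Filled points passed an adjusted p of 0.05, and the dashed line is the median of all 11190 genes, at 0.51 on the left and 0.32 on the right. On the left 12 points are filled, on the right none.

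Between the gates within irradiated mice, the death genes Fas, Pmaip1, Apaf1, Perp and Tnfrsf10b and the stress gene Sesn1 rose in CD24- cells, by 1.07 to 2.36 on the log2 scale, and Eda2r and Trp53inp1 fell. The arrest genes Cdkn1a and Plk3, the feedback gene Mdm2 and the apoptosis gene Ei24 were also called higher on the deposited values. None of them was called after median-of-ratios scaling alone, where Mdm2 and Ei24 stood at 0.08 and -0.03. In all, 10 members were called higher and 2 lower, against 48.6% and 7.27% of all genes tested, and the other 19 did not pass. The median log2 fold change of the members was 0.16, below the 0.51 of all genes, and 11 of the 31 lay above the median gene. A share of 10 in 31 is thus no larger than that of all genes. Cell type markers differed between the gates too: besides the Paneth, enterocyte and immune markers given above, the 7 goblet markers summed to 4873 to 8821 FPKM in irradiated CD24-, against 2552 to 3225 FPKM in irradiated CD24+ libraries, and the 8 tuft markers to 2.39 to 4.47 FPKM in irradiated CD24-, against 9.52 to 23.0 FPKM in irradiated CD24+ libraries. The goblet markers did not all follow their sum. Spdef had 16.6, 7.19 and 8.94 FPKM in irradiated CD24- libraries, against 23.4, 31.6 and 33.1 in irradiated CD24+ ones, and Muc2, Tff3 and Agr2 overlapped. The part of cell type markers in the calls was not tested.

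By role, apoptosis had 6 of its 12 tested members higher and 2 lower, arrest 2 of 6 higher, feedback 1 of 4 and stress 1 of 5. Of all genes tested, 48.6% were higher and 7.27% lower, so no role stood clearly above the share of all genes called higher. The apoptosis median was 0.53, close to the 0.51 of all genes. The 4 repair genes gave no call. Fas, the death receptor that triggers the extrinsic pathway, had 12.9, 17.1 and 13.8 FPKM in irradiated CD24- libraries, against 2.46, 2.23 and 2.72 FPKM in irradiated CD24+ and 1.48 and 2.76 FPKM in non-irradiated CD24+ libraries. Its log2 fold change between the gates was 2.16 ± 0.20 (adjusted p = 1.2e-05), a 5.91-fold ratio of means. Tnfrsf10b, the mouse TRAIL death receptor, had 3.995, 3.33 and 4.24 FPKM in irradiated CD24- libraries, against 1.28, 1.25 and 1.38 in irradiated CD24+ and 0.548 and 0.880 in non-irradiated CD24+ ones (1.07 ± 0.16 between the gates, adjusted p = 0.000205). Both death receptors were thus higher in every CD24- library than in any CD24+ library.

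The mitochondrial pathway was split. Pmaip1, which encodes the BH3-only protein Noxa, had 11.2, 13.3 and 19.0 FPKM in irradiated CD24- libraries, against 4.14, 3.47 and 3.70 in irradiated CD24+ and 2.02 and 4.17 in non-irradiated CD24+ libraries. Apaf1, the scaffold of the apoptosome, had 16.6, 17.8 and 15.5 FPKM in irradiated CD24- libraries, against 5.03, 4.84 and 5.32 in irradiated CD24+ and 2.28 and 4.58 in non-irradiated CD24+ ones. Their log2 fold changes between the gates were 1.67 ± 0.24 (adjusted p = 0.000187) and 1.54 ± 0.21 (adjusted p = 0.000119). Bax, in contrast, had 37.2, 34.6 and 59.6 FPKM in irradiated CD24- libraries, which overlapped the 22.5 to 43.8 FPKM of irradiated CD24+ ones. Its difference of 0.52 ± 0.32 was close to that of the median gene (adjusted p = 0.192), although with the replicate number as a block, which treats the gates as paired, it passed (adjusted p = 0.00753). After median-of-ratios scaling Bax stood at -0.03 and did not pass, with or without the block. Bbc3 showed 0.679, 0.874 and 0.834 FPKM in irradiated CD24- libraries, overlapping the 0.744 to 0.923 FPKM of irradiated CD24+ ones.

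Perp, a desmosome protein and apoptosis effector of epithelia, was among the most abundant members, with 109, 103 and 116 FPKM in irradiated CD24- libraries, against 35.4, 35.7 and 42.5 in irradiated CD24+ and 26.7 and 33.0 in non-irradiated CD24+ libraries (1.51 ± 0.20 between the gates, adjusted p = 0.000117). Its CD24- libraries varied little, with an SD of 6.57 FPKM, and stood far above all CD24+ ones. Ei24, an endoplasmic reticulum protein first found as a p53-induced gene, had 62.2, 57.1 and 50.3 FPKM in irradiated CD24- libraries, against 40.3, 36.4 and 39.7 in irradiated CD24+ and 27.5 and 34.9 in non-irradiated CD24+ ones. Its difference of 0.53 ± 0.20 (adjusted p = 0.0436) matched the median gene, was lost when any 1 of the 6 irradiated libraries was left out, and stood at -0.03 after median-of-ratios scaling.

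Eda2r and Trp53inp1 went the other way. Eda2r had 0.362, 0.268 and 1.43 FPKM in irradiated CD24- libraries, against 2.64, 1.59 and 2.64 in irradiated CD24+ libraries (-1.01 ± 0.25, adjusted p = 0.00462). Replicates 1 and 2 of irradiated CD24- were at the level of non-irradiated CD24+ cells, whose 0.262 and 0.293 FPKM are given above. Eda2r reached 1 FPKM only in replicate 3 of irradiated CD24- and in irradiated CD24+ libraries. It could not pass the filter without the latter, which ties this direction to the filter. Trp53inp1 had 2.96, 3.40 and 4.86 FPKM in irradiated CD24- libraries, against 12.6, 12.02 and 8.79 in irradiated CD24+ and 15.7 and 8.80 in non-irradiated CD24+ ones (-1.36 ± 0.25 between the gates, adjusted p = 0.000763). All 3 CD24- libraries were below all 5 CD24+ libraries. Aen, a nuclease that p53 induces during apoptosis, was below every irradiated CD24+ library in all 3 CD24- libraries, at 6.90, 4.37 and 7.10 FPKM against 8.18, 8.54 and 11.3 FPKM. It missed the threshold (-0.55 ± 0.31, adjusted p = 0.158) but passed it with the replicate block (adjusted p = 0.0162). Phlda3 and the RNA-binding protein gene Zmat3 overlapped between the gates, at -0.60 ± 0.46 and 0.22 ± 0.26, and Phlda3 was called lower with the block (adjusted p = 0.0406). Like Eda2r, Phlda3 reached 1 FPKM only in replicate 3 of irradiated CD24- and in irradiated CD24+ libraries, which ties this direction to the filter.

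Among the arrest genes, Cdkn1a had 68.6, 56.0 and 153 FPKM in irradiated CD24- libraries, against the 29.5 to 45.3 FPKM of irradiated CD24+ libraries given above (1.24 ± 0.37, adjusted p = 0.0133). Every CD24- library was above every CD24+ one, and replicate 3 stood above the others, at a ratio of 2.45 to their mean. Plk3, a stress kinase that phosphorylates p53, had 2.87, 2.44 and 7.14 FPKM in irradiated CD24- libraries, against 0.598, 0.965 and 1.25 in irradiated CD24+ and 0.250 and 1.61 in non-irradiated CD24+ ones (1.31 ± 0.34 between the gates, adjusted p = 0.00686). Plk3 overlaps Tctex1d4 on the opposite strand, and the library kit keeps no strand, so reads of both could be counted. Ccng1, in contrast, had 33.4, 31.9 and 71.7 FPKM in irradiated CD24- libraries, which span the 37.0 to 53.5 FPKM of irradiated CD24+ ones (-0.13 ± 0.31, adjusted p = 0.735). Gtse1 overlapped as well, with 4.01, 2.55 and 3.68 FPKM in irradiated CD24- libraries (0.03 ± 0.23, adjusted p = 0.922), as was Btg2 (-0.03 ± 0.19, adjusted p = 0.902). Plk2 stood at -0.63 ± 0.37 (adjusted p = 0.169) and was called lower with the replicate block (adjusted p = 0.00868).

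None of the repair genes passed. Ddb2 had 5.06, 4.68 and 4.64 FPKM in irradiated CD24- libraries, against 3.09, 4.22 and 3.74 in irradiated CD24+ and 2.004 and 3.82 in non-irradiated CD24+ ones. Its gates did not overlap, but the difference was 0.31 ± 0.20 (adjusted p = 0.21), and Ddb2 overlaps Acp2 on the opposite strand, so reads of both could be counted. Polk had 1.62, 1.08 and 1.20 FPKM in irradiated CD24- libraries, all below the 1.93 to 2.02 FPKM of irradiated CD24+ ones (-0.38 ± 0.16, adjusted p = 0.0549). Xpc and Rrm2b overlapped, at 0.16 ± 0.20 and 0.01 ± 0.15.

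Of p53 and its regulators, Trp53 had 29.2, 23.9 and 17.8 FPKM in irradiated CD24- libraries, overlapping the 18.9 to 28.6 FPKM of irradiated CD24+ ones (-0.04 ± 0.29, adjusted p = 0.926). Mdm2 had 11.2, 11.3 and 16.4 FPKM in irradiated CD24- libraries, all above the 7.45 to 9.40 FPKM of irradiated CD24+ ones. Its difference was 0.59 ± 0.22 (adjusted p = 0.0366), and this call was lost on leaving out replicate 2 or 3 of CD24-, or replicate 1 or 2 of CD24+ (adjusted p from 0.0546 to 0.14). Mdm4 and Ppm1d stood at -0.15 ± 0.20 and -0.10 ± 0.17. In the stress group Sesn1, a sestrin that restrains mTORC1 in response to p53, had the largest difference of all members. It had 28.4, 24.04 and 14.9 FPKM in irradiated CD24- libraries, against 4.06, 3.74 and 2.57 in irradiated CD24+ and 2.245 and 2.73 in non-irradiated CD24+ ones (2.36 ± 0.25 between the gates, adjusted p = 2.1e-05), a 6.49-fold ratio. Its paralogue Sesn2 had 3.58, 2.56 and 5.37 FPKM in irradiated CD24- libraries and overlapped irradiated CD24+ ones (0.34 ± 0.21, adjusted p = 0.2). Rps27l had 254, 319 and 296 FPKM in irradiated CD24- libraries, against 181, 204 and 248 in irradiated CD24+ and 124 and 176 in non-irradiated CD24+ ones. Its gates did not overlap, and it missed the threshold (0.46 ± 0.27, adjusted p = 0.165) but passed it with the replicate block (adjusted p = 0.0413). Over the alternatives its log2 fold change fell as low as -0.11. Ddit4, another brake on mTORC1, and Gdf15 stood at -0.36 ± 0.23 and -0.26 ± 0.26.

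With the replicate block 12 members were called higher and 5 lower, against 55.7% and 8.57% of all genes. The gates did not overlap for 12 members in the higher and 4 in the lower direction, against 59.1% and 9.31% of all genes.

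Scaling changed the split of calls between the gates. After median-of-ratios scaling 6 members were higher and 9 lower, against 32.2% and 25.1% of all genes, and the member median was -0.27 against 0.03. The 6 were Fas (1.65), Tnfrsf10b (0.66), Pmaip1 (1.16), Apaf1 (1.017), Perp (0.95) and Sesn1 (1.84), all of which were also called on the deposited values. The 9 lower were Eda2r (-1.23) and Trp53inp1 (-1.80), called on both scales, with Btg2 (-0.57), Aen (-1.03), Polk (-0.70), Trp53 (-0.58), Mdm4 (-0.63), Ppm1d (-0.47) and Ddit4 (-0.88). Cdkn1a stayed positive at 0.68 (adjusted p = 0.132) and Plk3 at 0.92 (adjusted p = 0.0518), neither past the threshold, and Mdm2 stood at 0.08. With the block added to the scaling, 8 were higher and 12 lower (33.8% and 25.6% of all genes). Cdkn1a (adjusted p = 0.0279) and Plk3 (adjusted p = 0.00754) were among these 8, in a fit added after seeing the data. Scaling on all genes other than Paneth cell products gave 7 higher and 8 lower (29.9% and 16.4% of all genes). Plk3 was among these 7 (adjusted p = 0.0452) and Cdkn1a was not (adjusted p = 0.114).

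**Figure D3:**
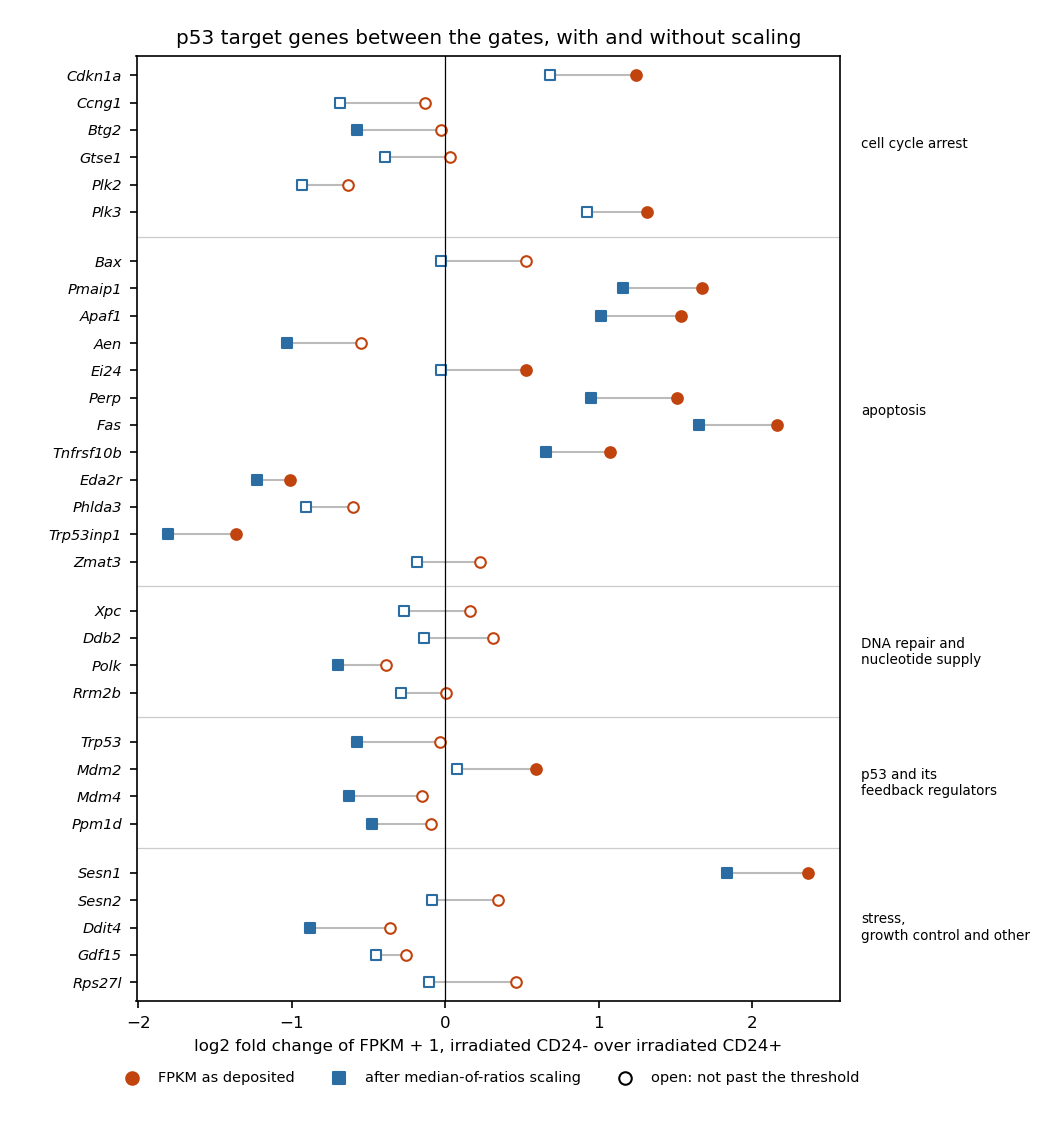
Log2 fold change between irradiated CD24- and irradiated CD24+ for each tested member, on the deposited FPKM (circles) and after median-of-ratios scaling (squares), filled where the adjusted p was under 0.05. All members shift to the left with scaling, Fas, Pmaip1, Apaf1, Perp, Tnfrsf10b and Sesn1 stay filled on the right, and Eda2r and Trp53inp1 stay filled on the left.

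Irradiated CD24- and non-irradiated CD24+ cells differ in gate and in irradiation, and each group also enters a comparison above, so these calls are not separate evidence. In this comparison 18 members were higher in irradiated CD24- cells and Trp53inp1 was lower (-1.45 ± 0.28), against 65.7% and 4.99% of all genes, with a member median of 0.84 against 0.88. Sesn1 (2.71 ± 0.27, adjusted p = 1.94e-05), Cdkn1a (2.42 ± 0.41, adjusted p = 0.000377), Fas (2.34 ± 0.23, adjusted p = 1.62e-05) and Apaf1 (2.04 ± 0.23, adjusted p = 3.7e-05) differed most. Bax (1.57 ± 0.36, adjusted p = 0.00269) and Ccng1 (1.24 ± 0.34, adjusted p = 0.00781) were called here, though in neither other comparison. The same holds for Sesn2 at 1.09 ± 0.24, Rps27l at 0.96 ± 0.30, Gtse1 at 0.84 ± 0.26, Trp53 at 0.82 ± 0.33, Zmat3 at 0.75 ± 0.29 and Ddb2 at 0.61 ± 0.23, whose adjusted p ranged from 0.00208 to 0.0422. Zmat3 had 2.79, 2.03 and 5.41 FPKM in irradiated CD24- libraries, against 2.32, 2.23 and 3.31 in irradiated CD24+ and 1.32 and 1.67 in non-irradiated CD24+ ones. Without replicate 1 of the non-irradiated group 11 members were called higher, with 49.5% of all genes. The calls lost without it were those of Ccng1 (1.09), Plk3 (0.87), Zmat3 (0.65), Mdm2 (0.64), Gtse1 (0.58), Trp53 (0.30) and Ddb2 (0.27). Zmat3 also lost its call without replicate 2 of that group (0.85) or replicate 3 of irradiated CD24- (0.44), and Ddb2 without replicate 1 (0.57) or 2 (0.62) of irradiated CD24-. Trp53 lost it without replicate 1 (0.66) or 2 (0.80) of irradiated CD24- or replicate 2 of irradiated CD24+ (0.82), and Rps27l without replicate 2 of irradiated CD24- (0.88). After median-of-ratios scaling 7 were higher and 6 lower (29.4% and 22.9% of all genes), and Cdkn1a, at 1.42, was the only arrest gene among the 7 (adjusted p = 0.0171).

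Replicate 3 carried the highest value in its group for many members. In irradiated CD24- cells it was highest for 17 of the 31 members, against 29.7% of all genes tested, and in irradiated CD24+ cells for 18 of the 31, against 42.2%. In irradiated CD24- cells replicate 3 exceeded the mean of the other two by 8.56-fold for Phlda3, at 5.69 FPKM against 0.812 and 0.518 FPKM, and by 4.44-fold for Plk2, at 3.30 against 1.003 and 0.487 FPKM. The ratio was 4.98 for Gdf15, 4.56 for Eda2r, 2.69 for Plk3, 2.249 for Zmat3 and 2.20 for Ccng1, which joins arrest, apoptosis and stress genes. Cdkn1a, Plk2 and Phlda3 lay above the central 95% of all genes for this difference. In irradiated CD24+ cells the ratio was 2.11 for Phlda3, 1.93 for Plk2 and 1.83 for Bax, the 3 members above the central 95% there. Not all targets shared this: Sesn1 was lowest in replicate 3 of both gates, with ratios of 0.567 and 0.659 in irradiated CD24- and irradiated CD24+, and Trp53 was low in replicate 3 of CD24- (0.669) but high in that of CD24+ (1.31).

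Marker sums differed between the same CD24- libraries. Enterocyte markers summed to 15848, 21394 and 35342 FPKM in replicates 1, 2 and 3, enteroendocrine markers to 521, 1521 and 3429, and stem cell markers to 426, 306 and 53.8. Paneth markers summed to 32327, 19671 and 14898, of which Reg3g alone gave 8230, 13010 and 11279. Not all markers followed their sum. Sis had 359, 340 and 275 FPKM and Lct 131, 147 and 89.6, both lowest in replicate 3, and Apob had 231, 273 and 272. Of the enteroendocrine markers Cck, Ghrl, Gcg, Sct and Gip were highest in replicate 2. Replicate 3 thus had the highest enterocyte sum and the lowest stem cell sum, and the part of this in the p53 targets was not tested. Without this library Plk2 (-1.07 ± 0.28, adjusted p = 0.00605) and Phlda3 (-1.27 ± 0.25, adjusted p = 0.000922) were called lower in irradiated CD24- than in irradiated CD24+ cells, among 4 members and 6.67% of all genes, while Cdkn1a stayed called at 0.81 ± 0.30 (adjusted p = 0.0377). In that fit Phlda3 reached 1 FPKM only in irradiated CD24+ libraries, which ties its direction to the filter, so its call is not support for that direction.

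**Figure D4:**
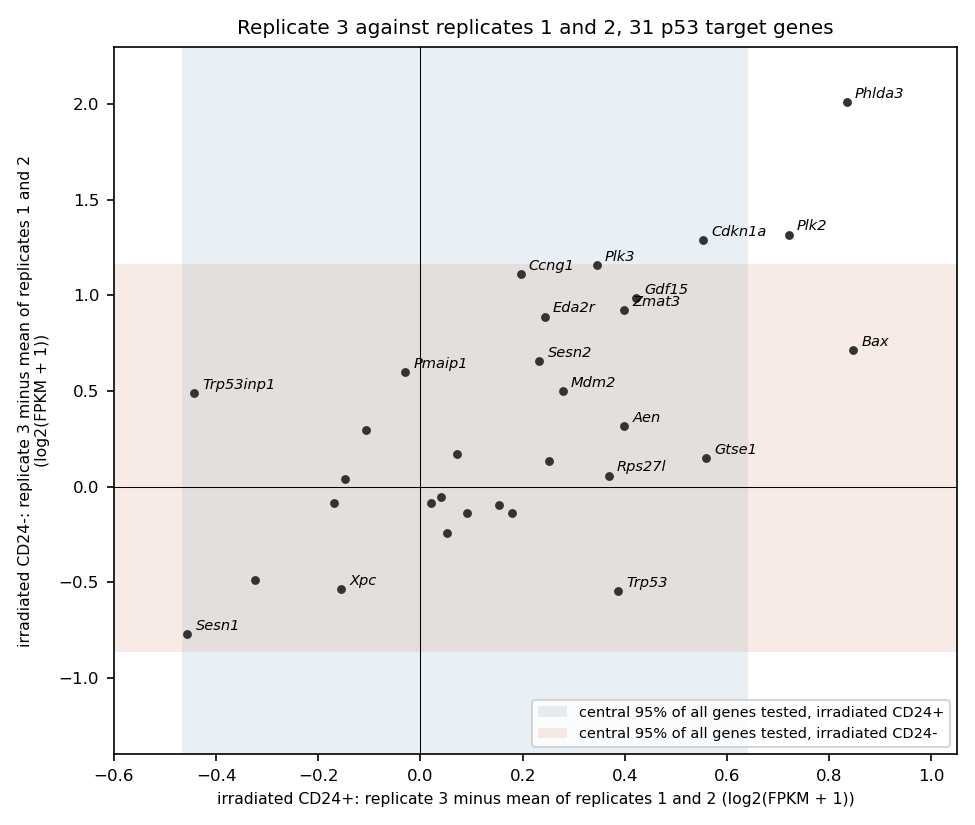
Difference in log2(FPKM + 1) between replicate 3 and the mean of replicates 1 and 2 for each tested member, in irradiated CD24+ (x axis) and irradiated CD24- cells (y axis), with shaded bands for the central 95% of all genes in each group. Phlda3 and Plk2 lie outside both bands, Cdkn1a outside that of irradiated CD24- and Bax outside that of irradiated CD24+, and Sesn1 lies lowest on both axes.

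Further lists place the members in the pathway. Of 15 upstream kinases and modifiers 12 were tested. Chek2, the kinase that stabilises p53, had 5.58, 6.33 and 7.27 FPKM in irradiated CD24+ libraries, against 2.26 and 3.98 in non-irradiated ones (0.87 ± 0.25, adjusted p = 0.348), and none of the list was called after irradiation of the CD24+ gate. The acetyltransferase gene Kat5 followed there, at 0.47 ± 0.23. Between the gates 3 of the 12 were higher in irradiated CD24- and 0 lower, a smaller share than the 48.6% and 7.27% of all genes. They were the kinase Hipk2, with 10.0, 7.39 and 6.01 FPKM in irradiated CD24- against 2.80, 3.08 and 2.28 FPKM in irradiated CD24+ libraries (1.22 ± 0.22, adjusted p = 0.00064), Kat5 (0.76 ± 0.20, adjusted p = 0.00817) and, named because so few were called, Ep300 (0.59 ± 0.22, adjusted p = 0.0368). After median-of-ratios scaling 2 were higher and 6 lower (32.2% and 25.1% of all genes). Against non-irradiated CD24+ cells 6 were higher and 0 lower in irradiated CD24- cells (65.7% and 4.99% of all genes), led by Hipk2 (1.62 ± 0.24) and Kat5 (1.23 ± 0.23).

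Of 25 other p53 targets, 19 were tested. None was called between irradiated and non-irradiated CD24+ cells, where Dcxr, a carbonyl reductase (0.98 ± 0.30), and the epoxide hydrolase Ephx1 (1.60 ± 0.54) had the smallest p. Ephx1 had 18.3, 15.1 and 24.02 FPKM in irradiated CD24+ libraries, against 4.49 and 6.82 in non-irradiated ones, without overlap. Between the gates 11 were higher in irradiated CD24- and 2 lower, against 48.6% and 7.27% of all genes, and after median-of-ratios scaling 10 and 3, against 32.2% and 25.1%. Cgref1, a growth-inhibitory calcium-binding protein, had 216, 299 and 372 FPKM in irradiated CD24- libraries, against 39.8, 48.4 and 48.5 in irradiated CD24+ ones (2.64 ± 0.28, adjusted p = 2.38e-05). Thbs1, a matrix protein that inhibits vessel growth, had 0.769, 0.514 and 0.475 FPKM in irradiated CD24- libraries, against 9.27, 13.1 and 11.8 in irradiated CD24+ ones (-2.96 ± 0.29, adjusted p = 1.42e-05). Thbs1 was under 1 FPKM in each irradiated CD24- library and so entered the test only through CD24+ libraries, which ties its direction to the filter. With that limit, Cgref1 and Thbs1 differed in opposite directions between the same gates. Against non-irradiated CD24+ cells 14 were higher and 2 lower (65.7% and 4.99% of all genes), led by Sfn, the checkpoint protein 14-3-3 sigma (3.50 ± 0.36, adjusted p = 2.07e-05), and Gadd45a, a growth arrest gene (2.23 ± 0.25, adjusted p = 3.31e-05). Sfn had 92.8, 80.8 and 125 FPKM in irradiated CD24- libraries, against 14.4, 19.2 and 15.5 in irradiated CD24+ and 4.46 and 12.9 in non-irradiated CD24+ ones.

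Genes of G2 and mitosis, which p53 lowers indirectly through p21, were set beside Cdkn1a. All 12 were tested, and all 12 lay above the median gene in irradiated over non-irradiated CD24+ cells, with a list median of 0.79 and 0 calls. Birc5, the mitotic protein survivin, had 5.32, 7.56 and 9.71 FPKM in irradiated CD24+ libraries, against 2.51 and 4.78 in non-irradiated ones (0.89 ± 0.29, adjusted p = 0.348), and the spindle kinase Aurka stood at 0.87 ± 0.29. The libraries of the 2 groups did not overlap for 9 of the 12, each higher after irradiation, against 34.2% of all genes, and the list median after scaling was 0.43. Neither Cdkn1a nor any of the 12 passed the test there. Between the gates 0 of the 12 were called and 0 lay above the median gene, with Plk1 at -0.54 ± 0.27 (adjusted p = 0.119) and Top2a at -0.48 ± 0.34 (adjusted p = 0.25), and 4 were called lower after median-of-ratios scaling (25.1% of all genes). Against non-irradiated CD24+ cells 6 were higher and 0 lower in irradiated CD24- cells (65.7% and 4.99% of all genes), among them Birc5 (1.17 ± 0.29) and Aurka (1.08 ± 0.29), and after scaling 0 were higher and 1 was lower (29.4% and 22.9% of all genes).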

How the data were processed

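RNA from sorted cells was sequenced by the submitters from libraries made with the TruSeq RNA v2 kit, which keeps no strand information. The authors deposited FPKM per gene and library. Build mm9 and the tools StringTie 1.3.4 and TopHat2 2.1.0 are named, per the submitters' processing notes. Annotation, filters and read numbers: not given in the sources used here, so the depth behind a value is unknown. The table holds 24015 entries for 24013 symbols, and 2 repeated symbols were summed. A member is a listed symbol found in the table.

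Values were transformed as log2(FPKM + 1), which understates changes of genes near or below 1 FPKM. Genes with at least 1 FPKM in at least 2 libraries were fitted over all 8 libraries and 3 groups with limma 3.58.1 in R 4.3.3 (eBayes with trend, two-sided). Calls need a Benjamini-Hochberg adjusted p under 0.05 over all 11190 genes. SE is limma's moderated standard error and SD the spread of FPKM. The fit was tested on simulated data. Members and lists were chosen with earlier results of these data known. Values in every library are given for each member called in any comparison, for Cdkn1a, Mdm2 and Trp53 and for the 3 smallest p per comparison, and others were named after their values were seen. Of each pathway list the 2 smallest p per comparison are named.

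Same-numbered irradiated CD24- and CD24+ libraries deviated together from their group means across genes (r = 0.366, 0.231 and 0.402, with at most 0.0518 for other numbers). The replicate number was therefore treated as pairing these gates, with the block as an alternative. This pairing was inferred from the same expression values that the block tests use. The labels do not say what a number marks. Other alternatives were a pseudocount of 0.1, no filter or one at 5 FPKM, median-of-ratios scaling, scaling on genes other than 37 Paneth products, scaling to TPM, fitting only the groups compared and leaving out each library. Scaling together with the block was added after seeing the data. Promoters are RefSeq windows, with 24 of 32 members matched. Figures used matplotlib 3.10.9 in Python 3.11.15.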

Additional observations from a re-analysis of the deposited data

How the results depend on the processing

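Over the alternatives, 1467 values of single members were recomputed: 1226 kept their direction and side of the threshold, 59 lost the call, 82 gained one, 81 changed sign without a call on either scale and 19 changed sign with one. The cause was not tested. Irradiated against non-irradiated CD24+: members called higher were 2 (Eda2r and Phlda3) with only the groups compared and 0 to 12 on leaving out a library, and all genes called were 1 without the filter, 5 after median-of-ratios scaling, 17 with only the groups compared and 0 to 5185 on leaving out a library. The replicate numbers are not shown to pair these groups (only 2 are shared, r = 0.232 and -0.0499); with the replicate block 2 members and 92 genes were called, and against irradiated CD24- Zmat3 lost and Xpc gained a call. Irradiated CD24- against irradiated CD24+: members higher were 6 after median-of-ratios scaling, 26 after scaling to TPM and 8 to 10 on leaving out a library. Members lower were 1 with the filter at 5 FPKM, 9 after median-of-ratios scaling, 8 with Paneth products left out of the scaling, 0 after TPM, 4 with only the groups compared, 5 with the block, 12 with block and scaling and 2 to 4 on leaving out a library. Genes called after TPM were 10623, against 6252. TPM scaling reversed Ccng1 (1.11), Btg2 (1.19), Polk (0.41), Trp53 (1.18), Mdm4 (0.95), Ppm1d (0.82) and Ddit4 (0.82), and median-of-ratios scaling, with or without the block, Ei24 (-0.028). TPM raises every gene of the CD24- libraries, because their FPKM sums are lowest. Irradiated CD24- against non-irradiated CD24+: members higher were 7 after median-of-ratios scaling, 8 with Paneth products left out of it, 30 after TPM and 11 to 19 on leaving out a library; members lower were 6, 4 and 0 under the 3 scalings, and genes called 5211 with Paneth products left out. TPM reversed Btg2 (1.297), Polk (0.72) and Ddit4 (1.11), and median-of-ratios scaling Ei24 (-0.17), Ddb2 (-0.20), Trp53 (-0.15), Mdm2 (-0.025), Mdm4 (-0.59), Ppm1d (-0.40) and Rps27l (-0.077). Fas, Pmaip1, Apaf1, Perp and Sesn1 kept their call between the gates under every alternative, and Tnfrsf10b under every one that tested it. Eda2r, Gdf15, Bbc3 and Rrm2b lie near the 1 FPKM of the filter, and read numbers are unknown.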
